A study of Mus musculus with 12 samples.

Results

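The genes described here encode the kinases of the MAP kinase cascade, in 4 tiers named Map4k, Map3k, Map2k and Mapk. They were chosen by name alone, as every gene of the deposited expression table whose symbol is one of these tier names followed by a number. The rule found 41 genes of the 27013 in the table, with 5 in the Map4k tier, 17 in the Map3k tier, 7 in the Map2k tier and 12 in the Mapk tier. Of these, 34 had an adjusted p-value in the authors' deposited table and are called tested.

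The series studied macrophages of the M1 (inflammatory) type, grown from the bone marrow of mice, and asked what loss of YTHDF2 does to them and which transcripts YTHDF2 binds. It holds 12 libraries in 6 groups of 2. WT and Ythdf2 cKO (conditional knockout) macrophages each gave an m6A immunoprecipitate and its input RNA, and WT macrophages alone gave a YTHDF2 immunoprecipitate and its own input. The labels do not say whether the 2 libraries of a group came from separate mice or cultures, so p-values may measure technical spread alone. In every group the mice were C57BL/6, and the marrow cells had 7 days with 20 ng/ml of the growth factor M-CSF and then LPS at 100 ng/ml together with 20 ng/ml interferon gamma for 24 h. No unstimulated macrophages were among the groups. The Cre driver, the deleted exons and the age and sex of the mice are not given in the sources used here.

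In a MAP kinase cascade, a MAP3K phosphorylates a MAP2K, which phosphorylates a MAP kinase on a threonine and a tyrosine. MAP4Ks act above some MAP3Ks. In macrophages, LPS signals through TAK1 (Map3k7) and TPL2 (Map3k8) to the p38, JNK and ERK kinases, which drive the transcription and the stability of cytokine mRNAs. YTHDF2 is a reader of N6-methyladenosine (m6A), a methyl mark on adenosines of mRNA, and is known to direct bound mRNAs to decay. A MAP kinase is switched on by phosphorylation, so the RNA levels measured here say nothing of its activity.

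The 3 sequences below show where the YTHDF2 map reached the start of a cascade transcript, where few of its peaks lie. Each is the stretch of a RefSeq promoter window (250 bases before and 50 after an annotated transcript start, GRCm38.p6) that is both transcribed and inside a YTHDF2 peak of the same gene, cut to at most 30 bases. All 3 genes lie on the minus strand, and the sequence is that of the RNA, 5′ to 3′. Capitals would mark GGAC, a core of the m6A consensus, and there are none.
Map3k10, chr7:27674532-27674561: caggagccggctgaggaggatgggggccgc
Map2k1, chr9:64253556-64253585: gtgcgcggcgtctcggagcgccggagcagc
Map3k1, chr13:111808944-111808971: aaatggcggcggcggcgggcgatcgcgc
The Map3k10 and Map2k1 stretches are bases 21 to 50 after the start, and the Map3k1 stretch is bases 23 to 50. The Map2k1 start is also the annotated start of the gene, the Map3k10 start is 49 bp inside the gene, and the Map3k1 start is 9276 bp inside it. Their GC content was 76.7%, 80.0% and 78.6%, against a median of 56.7% over the last 30 bases of all 32851 windows. GGAC occurred in 11.7% of those 30-base ends on the RNA strand, and GTCC, the same motif on the other strand, in 10.5%. The cascade genes had 45 windows from 33 genes, of which 7 held GGAC and 2 held GTCC in their last 30 bases.

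Input RNA was compared between 2 and 2 libraries. The authors' deposited table does not say which genotype is the numerator. Ythdf2 itself had a positive log2 fold change, so positive here means higher in the pair of libraries with more Ythdf2 RNA, called the positive pair, and the other is called the negative pair. The read counts of each library are not columns of that table, but they could be recovered from its means, as whole numbers that fit both the mean and the fold change, for all 41 genes. Which recovered library carries which label is not known, and the numbers 1 and 2 are only names. Normalized counts (reads divided by the size factor of the library) are given below in the order negative 1, negative 2, positive 1, positive 2. Size factors were 1.28, 0.884, 0.972 and 0.924.

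Ythdf2 had normalized counts of 1112 and 1128 in the negative pair and 2060 and 2747 in the positive pair. Its log2 fold change in the authors' deposited table was 1.10 ± 0.16 (SE; adjusted p = 2.1e-09, Wald test). The negative pair held 46.6% of the Ythdf2 RNA of the positive pair. Since the deleted exons are not given, this level does not check the labels. All 10 macrophage markers were tested, with a summed mean count of 459128, of which 204979 came from Lyz2. Of the 10, 4 were called (1 positive and 3 negative), where 2.32% of all tested genes were. The positive one was Cd68, with a log2 fold change of 0.40 ± 0.11 in the authors' deposited table. The negative ones were Lyz2 (-1.49 ± 0.33), Mrc1 (-0.78 ± 0.21) and Itgam (-0.55 ± 0.11). The summed mean count was 10122 for 8 neutrophil markers, 8496 of it from Csf3r, and 1490 for 6 fibroblast and stroma markers. It was 70 or less for each of the B cell, T and NK cell, dendritic, erythroid and mast cell lists, and the neutrophil genes Ly6g and Elane had mean counts of 0.772 and 0.479. In the authors' deposited table, 1 of 4 tested neutrophil markers (Mmp8, log2 fold change -0.83 ± 0.19) and 1 of 4 tested fibroblast markers (Col1a1, 0.56 ± 0.17) were called. The part of these cells in any value below was not tested.

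Over all tested genes, positive library 1 stood apart from the other 3. The SD of the log2 difference over tested genes was 0.21 between the negative libraries and 0.34 between the positive libraries. Positive library 1 differed from the negative libraries with SDs of 0.38 and 0.40, whereas for positive library 2 these were 0.27 and 0.30, smaller than the distance to its own pair. Positive library 1 was the highest or the lowest of the 4 for 22 of the 34 tested cascade genes, positive library 2 for 19, and the negative libraries for 13 and 14. Over all tested genes, the median absolute log2 distance of positive library 1 from the mean of the other 3 was 0.16, against 0.10 to 0.11 for the other libraries. Over the cascade genes it was 0.10, against 0.07 to 0.09, so for most of them the library lay little further out. Fitted by limma without 1 library, the log2 difference of 15 of the 34 genes turned sign for at least 1 library left out, most often for positive library 1 (9 genes). For 28 of the 34 it turned or moved by over 1.5 times. A difference near 0, such as -0.003 for Map2k5 with all libraries, meets this rule with a small shift. The shares over all genes were not computed. Values are given below for the genes that moved furthest on the log2 scale.

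No cascade gene passed the authors' test. At an adjusted p under 0.05, 0 of the 34 tested genes were called, where 2.32% of all 10778 tested genes were (1.76% positive and 0.557% negative). At an unadjusted p under 0.05 the count was also 0 of 34, where 9.99% of all tested genes passed. The smallest p was 0.078, with an adjusted p of 0.61, and the highest absolute Wald statistic was 1.77, where the lowest among called genes was 3.25. By limma with a mean-variance trend on the recovered counts, 0 of 34 were called and 2 had an unadjusted p under 0.05 (Map4k3 with 0.036 and Map3k1 with 0.048), and limma called 0.0399% of the 10019 genes it could use.

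The cascade genes lay close to 0 and were measured with more precision than most genes. Their log2 fold changes ran from -0.41 to 0.24 with a median of -0.03, and 13 were above 0 and 21 below. The median over all tested genes was -0.01. The median absolute log2 fold change was 0.10, against 0.13 for all tested genes, and the median SE was 0.14 against 0.17. The 95% interval lay within 1.5-fold in either direction for 26 of the 34 (76.5%), against 63.8% of all tested genes. Their median mean count was 1395, against 739. For these 26 genes a change of 1.5-fold or more between the pairs lies outside the interval. Like the p-values, the intervals may measure technical spread alone. The other 8 (Map4k1, Map3k5, Map3k6, Map3k9, Map3k12, Map3k15, Map2k6 and Mapk11) have intervals that reach 1.5-fold in at least 1 direction, so no such bound can be given for them.

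**Figure D1:**
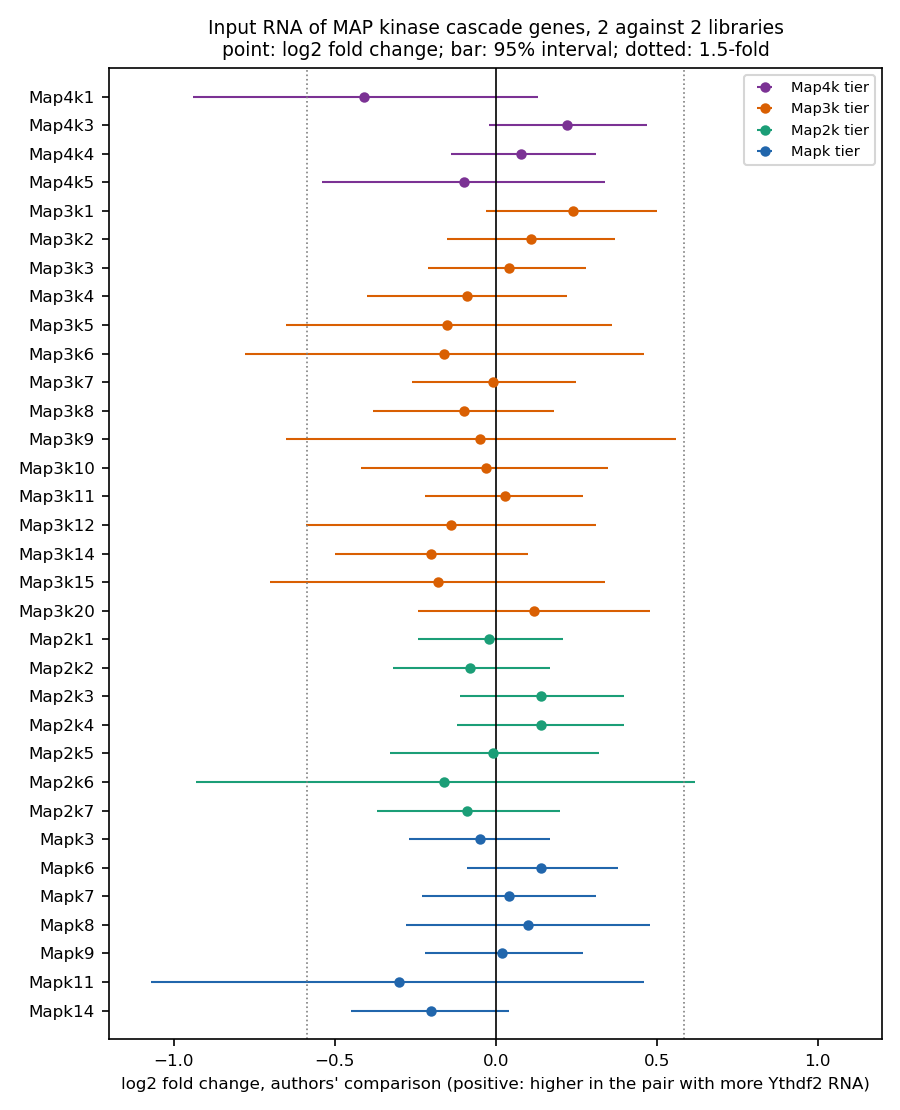
Log2 fold change of tested MAP kinase cascade genes in the input RNA comparison of 2 against 2 libraries (x axis, positive meaning higher in the pair with more Ythdf2 RNA), with its 95% interval as a bar and 1.5-fold as dotted lines. All intervals shown include 0, and they are widest for Map3k6, Map3k9, Map2k6 and Mapk11, which had mean counts of 76.3 to 159.

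Medians of the log2 fold change were -0.01 for the 4 tested Map4k genes, -0.05 for the 15 Map3k genes, -0.02 for the 7 Map2k genes and 0.00 for the 8 Mapk genes. No tier had a called gene. The positive pair lay above the negative pair without overlap for 7 of the 34 genes, as it did for 21.8% of all genes with recovered counts. The negative pair lay above for 6, and for 25.8% of all such genes.

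Of the Map4k tier, Map4k3 (GLK), a kinase upstream of JNK and of the nutrient sensor mTORC1, had normalized counts of 2534, 2264, 2822 and 2773. Both positive libraries were above both negative ones. Its log2 fold change in the authors' deposited table was 0.22 ± 0.13 (p = 0.078, adjusted p = 0.61), with a 95% interval of 0.983- to 1.38-fold. Map4k4 (HGK), which acts upstream of JNK, had the most reads of the tier, with normalized counts of 4151, 3925, 4314 and 4235. The pairs did not overlap, but the gap was narrow, and the log2 fold change was 0.08 ± 0.11 in the authors' deposited table. Map4k1 (HPK1), a kinase of blood cells that restrains antigen receptor signalling, had 207, 178, 160 and 131. The negative libraries were the higher ones, and its log2 fold change of -0.41 ± 0.27 in the authors' deposited table (p = 0.14) was the lowest of all 34 with all libraries, with an interval of 0.52- to 1.1-fold. By limma it was -0.55 without positive library 1 and -0.26 without positive library 2. Map4k5 overlapped between the pairs (293, 320, 251 and 320), and by limma it was at 0.07 without positive library 1 and at -0.29 without positive library 2. Map4k2 was not tested, with 1 read in each negative library and 0 in each positive library.

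At the Map3k tier, Map3k1 (MEKK1), a kinase upstream of JNK that also carries a ubiquitin ligase domain, had the largest positive value. Its normalized counts were 1706, 1824, 2230 and 1933. Positive library 1 was highest by a margin, and positive library 2 was closer to negative library 2 than to its pair. The authors' deposited table gave a log2 fold change of 0.24 ± 0.14 (p = 0.078), and by limma it was 0.34 with positive library 1 as the only positive library and 0.13 with positive library 2 as the only one.

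TAK1, the product of Map3k7, passes on signals from Toll-like and cytokine receptors, and its RNA was at 1639, 1666, 1599 and 1687. The 4 libraries spanned a narrow range, and the log2 fold change was -0.01 ± 0.13 in the authors' deposited table, an interval of 0.834- to 1.19-fold. Map3k8 encodes TPL2, the kinase through which LPS activates ERK, and had 1310, 1368, 1164 and 1338. Positive library 1 was lowest and the others lay close together, and the log2 fold change was -0.10 ± 0.14 in the authors' deposited table. By limma its value was -0.20 without positive library 2, and without positive library 1 it was -0.00. Map3k14 (NIK), the kinase of the non-canonical NF-κB pathway, had 821, 849, 709 and 743. Both negative libraries were higher, and the authors' deposited table gave -0.20 ± 0.15 (p = 0.19). Map3k5 (ASK1), a kinase activated by oxidative stress, had 298, 277, 198 and 322. Positive library 1 was the lowest and positive library 2 the highest, so the pairs overlapped, and the log2 fold change was -0.15 ± 0.26 in the authors' deposited table.

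Among the other Map3k genes with peaks, Map3k3 (MEKK3), which feeds the ERK5 branch, had 2864, 2885, 3152 and 2742. The mixed lineage kinase gene Map3k11 (MLK3) had 2236, 2273, 2410 and 2177. For both, the positive libraries were the highest and the lowest of the 4, and the authors' deposited table gave log2 fold changes of 0.04 ± 0.13 for Map3k3 and 0.03 ± 0.13 for Map3k11. Map3k10 (MLK2) had 500, 388, 446 and 423 and a log2 fold change of -0.03 ± 0.20 in the authors' deposited table. Its negative libraries were the highest and the lowest, and by limma it was at 0.16 without negative library 1 and at -0.20 without negative library 2. Map3k20 (ZAK), a sensor of stalled ribosomes, had 489, 430, 484 and 518, with overlapping pairs and 0.12 ± 0.18 in the authors' deposited table. The 6 further tested genes of the tier (Map3k2, Map3k4, Map3k6, Map3k9, Map3k12 and Map3k15) had log2 fold changes of -0.18 to 0.11 in the authors' deposited table. Of these, 3 turned sign by limma between leaving out positive library 1 and positive library 2. Map3k12 went from -0.43 to 0.10, Map3k9 from -0.31 to 0.20 and Map3k6 from 0.15 to -0.56. The mean counts of the 6 ran from 144 for Map3k6 and Map3k9 to 1623 for Map3k2. Map3k13, with 10 to 16 reads per library, and Map3k19, with 3 to 5, were not tested.

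The Map2k tier was measured in full, with all 7 genes tested. Map2k1 and Map2k2 encode MEK1 and MEK2, the kinases of ERK. Map2k1 had the most reads of the tier, with normalized counts of 4965, 5360, 5281 and 4926, and Map2k2 had 2907, 2801, 2843 and 2570. The pairs overlapped for both, and the authors' deposited table gave log2 fold changes of -0.02 ± 0.12 and -0.08 ± 0.12. Map2k3 and Map2k6 encode MKK3 and MKK6, the kinases of p38. Map2k3 had 1710, 1589, 1881 and 1763, with both positive libraries higher and a log2 fold change of 0.14 ± 0.13 in the authors' deposited table. Map2k6 had fewer reads, with normalized counts of 190, 145, 76.2 and 225. Its positive libraries were the lowest and the highest of the 4, and differed more from each other than the pairs did. Its log2 fold change in the authors' deposited table was -0.16 ± 0.39 (p = 0.69, Wald test), an interval of 0.524- to 1.53-fold.

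The kinases of JNK are encoded by Map2k4 (MKK4) and Map2k7 (MKK7). Map2k4 had 1419, 1425, 1538 and 1599, with both positive libraries higher, and a log2 fold change of 0.14 ± 0.13 in the authors' deposited table. Map2k7 had 958, 948, 888 and 907, with both negative libraries higher, and -0.09 ± 0.15 in the authors' deposited table. Map2k5 (MEK5), the kinase of ERK5, had 684, 617, 647 and 650 and a log2 fold change of -0.01 ± 0.16 in the authors' deposited table.

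Of the MAP kinases themselves, Mapk3 (ERK1) had normalized counts of 6002, 5617, 5770 and 5458. The libraries of the pairs interleaved. Its log2 fold change in the authors' deposited table was -0.05 ± 0.11, an interval of 0.827- to 1.13-fold. Mapk6 (ERK3), an atypical member that is regulated by its own turnover, had 3183, 2963, 3465 and 3327. Both positive libraries were higher, with a log2 fold change of 0.14 ± 0.12 in the authors' deposited table. Mapk7 (ERK5) had 1524, 1539, 1700 and 1447, with the positive libraries at both ends and 0.04 ± 0.14 in the authors' deposited table.

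The JNK genes Mapk8 and Mapk9 had values near 0. Mapk8 (JNK1) had normalized counts of 364, 368, 389 and 394, and Mapk9 (JNK2) had 2336, 2243, 2402 and 2253. Counts are not divided by length, so levels are not compared between genes. The log2 fold change in the authors' deposited table was 0.10 ± 0.19 for Mapk8, whose pairs did not overlap, and 0.02 ± 0.12 for Mapk9, whose pairs did. Mapk10 (JNK3), best known from brain, had 1 read in 1 library and was not tested.

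Mapk14 (p38α), the main p38 kinase of macrophages, was on the negative side. Its normalized counts were 3904, 4058, 3201 and 3718. Both negative libraries were higher, and positive library 1 was well below the rest. The log2 fold change in the authors' deposited table was -0.20 ± 0.13 (p = 0.11, adjusted p = 0.67), an interval of 0.733- to 1.03-fold. By limma it was -0.31 with positive library 1 as the only positive library and -0.10 with positive library 2 as the only one. Mapk11 (p38β) was the tested gene with the fewest reads, at 89.3, 79.2, 79.2 and 57.4, and a log2 fold change of -0.30 ± 0.39 in the authors' deposited table. By limma it was at -0.54 without positive library 1 and at -0.08 without positive library 2. Mapk12 (p38γ), Mapk13 (p38δ) and Mapk15 (ERK8) were not tested, with 11 to 25, 3 to 9 and 1 to 3 reads per library.

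**Figure D2:**
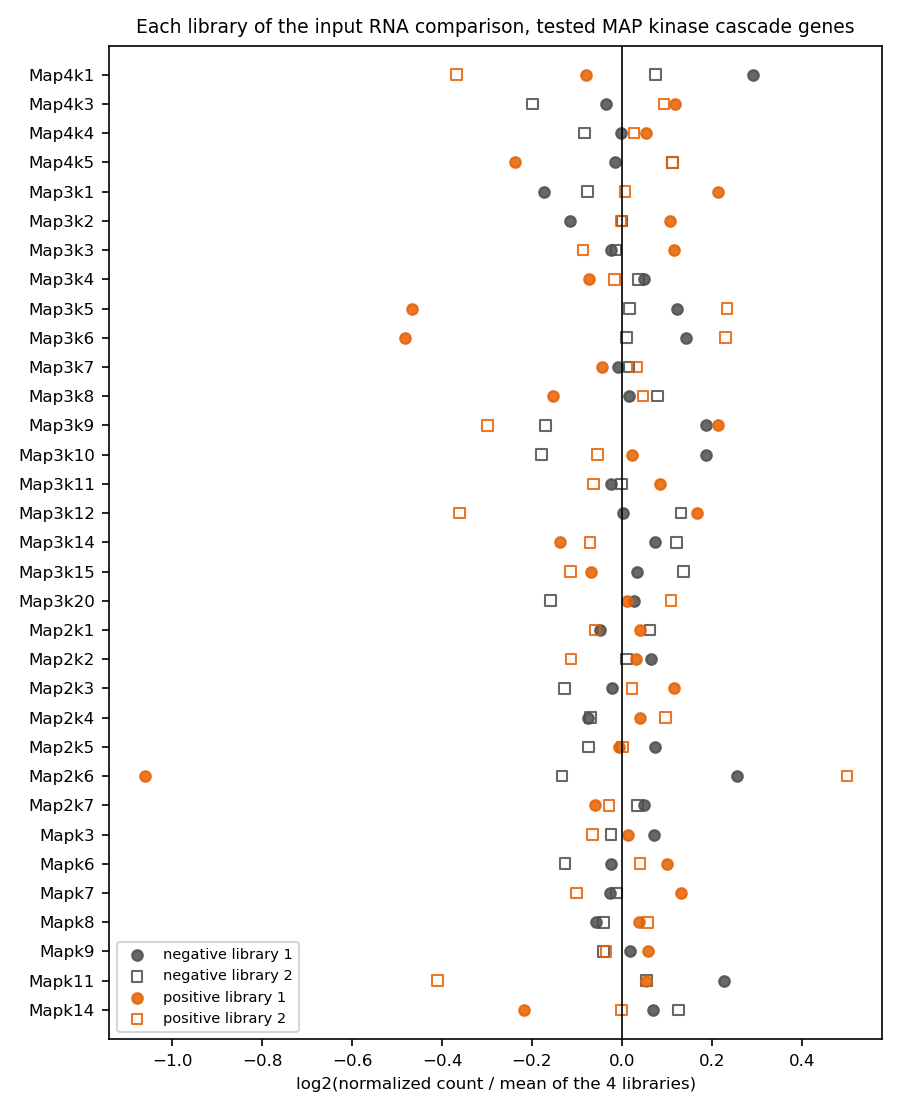
Normalized counts of tested MAP kinase cascade genes in each of the 4 input libraries, as the log2 ratio to the mean of the 4 (x axis), with circles and squares for the libraries numbered 1 and 2 of the negative (grey) and positive (orange) pair. For Map2k6, Map3k5 and Map3k6 positive library 1 lies far below the others and positive library 2 is the highest.

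Of the settings run, 1 gave calls among these genes, limma without positive library 2. It called 4 of the 34 genes, where it called 20.2% of all genes, so the share among the cascade genes (Map2k6, Mapk14, Map3k1 and Map3k5) was below that of all genes. The lone positive library 1 is assumed there to vary like the negative pair. Map2k6 was at a log2 difference of -1.11 (adjusted p = 0.004 by limma) in that fit. Without positive library 1 instead, Map2k6 was at 0.44 (adjusted p = 0.31 by limma), the opposite sign. Map3k5 likewise went from -0.54 (adjusted p = 0.025 by limma) to 0.16 (adjusted p = 0.66). Mapk14 and Map3k1 kept their signs, with limma adjusted p-values of 0.011 and 0.012 without positive library 2, and of 0.59 and 0.51 without positive library 1. The other fits without 1 library also leave 1 library in a pair, and their counts of calls are not read as a result about these genes.

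The rest of the pathway was described from a list of 90 other genes in the table, 78 of them tested. By the authors' adjusted p, 0 of the 78 were called, where 2.32% of all tested genes were. An unadjusted p under 0.05 was found for 10 of them (12.8%), near the 9.99% of all tested genes. Log2 fold changes were above 0 for 42 and below 0 for 36, with a median of 0.02. Kinases of the same tiers under other names (8 tested, such as the TAO kinases) had a median of 0.09, with 5 above 0, and Taok1 had the largest Wald statistic (log2 fold change 0.19 ± 0.12 in the authors' deposited table). RAS proteins and their adaptors and regulators (16 tested) had a median of -0.04 with 6 above 0. Rasgrp1, an exchange factor that loads RAS with GTP, had 0.48 ± 0.16 and an adjusted p-value of 0.097 in the authors' deposited table. Scaffolds and partners (13 tested) had a median of 0.08 with 10 above 0, led by the ubiquitin ligase gene Traf6 (0.26 ± 0.14 in the authors' deposited table).

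Downstream of the cascade, 9 tested kinases activated by MAP kinases had a median of 0.02, with 5 above 0. Mknk2 (MNK2), which phosphorylates the cap-binding factor eIF4E, had 0.33 ± 0.14 and an adjusted p-value of 0.33 in the authors' deposited table. The 17 transcription factors had a median of -0.06 with 6 above 0. The ETS repressor gene Etv3 was furthest from 0 by its Wald statistic (0.39 ± 0.14, adjusted p = 0.14 in the authors' deposited table). Log2 fold changes of the 17 ran from -0.91 to 0.44, and those with an unadjusted p under 0.05 by the Wald test lay on both sides of 0. The 15 phosphatases had a median of 0.09 with 10 above 0. Dusp4, which dephosphorylates MAP kinases in the nucleus, was at 0.68 ± 0.22 in the authors' deposited table, and its adjusted p of 0.084 was the smallest of the 78. Log2 fold changes of the 15 ran from -0.70 to 0.68, again with an unadjusted p under 0.05 by the Wald test on both sides of 0. The gene named for each group has its largest absolute Wald statistic, and all the named ones were positive.

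Both marks of the study's question, m6A and YTHDF2 binding, were mapped in WT macrophages as 1 list of peaks each, so no replicate error can be given. An m6A peak was listed for 17 of the 41 cascade genes and a YTHDF2 peak for 29. Both were listed for 16, and neither for 11, of which 4 were tested (Map4k1, Map3k6, Map2k5 and Map2k6). Map3k8 was the only gene with an m6A peak and no YTHDF2 peak. Among tested cascade genes, 17 of 34 (50.0%; 95% Wilson interval 34.1 to 65.9%) had an m6A peak, against 45.4% of all tested genes. For YTHDF2 peaks the share was 29 of 34 (85.3%; 69.9 to 93.6%), against 64.5%.

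Peaks were listed more often for genes with high counts, where more of the cascade genes lie. In the upper 50% of tested genes by mean count, 15 of 20 cascade genes (75.0%; 53.1 to 88.8%) had an m6A peak, against 62.4% of all such genes, and 19 of 20 (76.4 to 99.1%) had a YTHDF2 peak, against 84.1%. These intervals include the share of all genes for m6A and for YTHDF2. The lowest mean count of a cascade gene with an m6A peak was 480 and with a YTHDF2 peak 76.3. Mapk3 had no m6A peak at a mean count of 5712, the highest of the 41. By tier, an m6A peak was listed for 1 of 5 Map4k, 8 of 17 Map3k, 4 of 7 Map2k and 4 of 12 Mapk genes, and a YTHDF2 peak for 3, 13, 5 and 8 of them.

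The 41 genes held 28 m6A peaks and 111 YTHDF2 peaks. Map4k4 had most of both, with 4 m6A peaks and 24 YTHDF2 peaks, and 8 genes of the table had at least as many YTHDF2 peaks. Mapk7 and Mapk14 followed with 3 m6A peaks each, and Map3k1, Map3k11, Mapk6 and Mapk9 had 2 each. After Map4k4, most YTHDF2 peaks were on Map3k1 (9), Map3k10 (7), Mapk6 (6) and Map3k20 (6). Fold enrichments at the summit, which are the authors', ran from 1.85 to 7.47 with a median of 3.31 over these peaks, against 3.01 over the whole list. The highest, 7.47, was a peak in the coding sequence of Map3k10 (chr7:27658034-27658720, mm10).

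**Figure D3:**
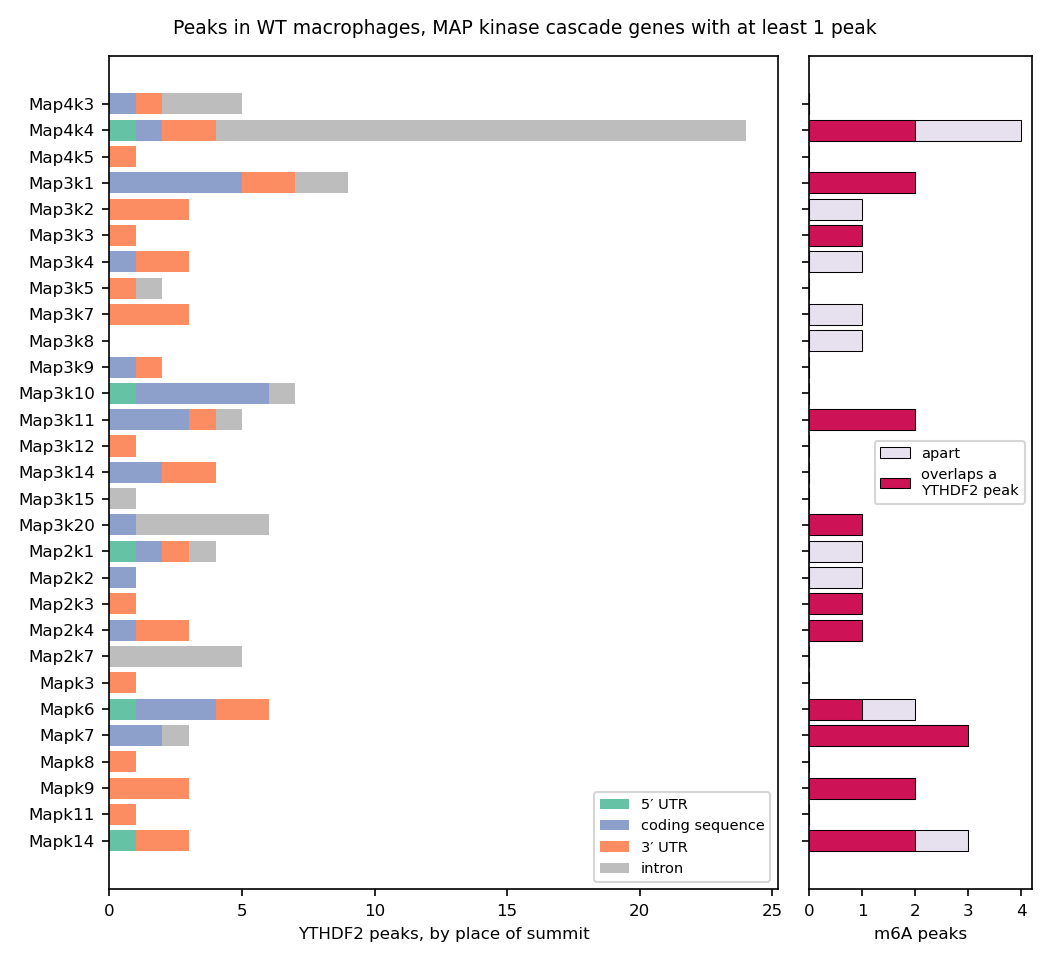
Number of YTHDF2 peaks of MAP kinase cascade genes with a peak, coloured by where the summit lies (left), and number of m6A peaks, with those that overlap a YTHDF2 peak in red (right). Map4k4 stands out with 24 YTHDF2 peaks, 20 of them intronic by the transcripts that the list names. All 5 YTHDF2 peaks of Map2k7 are also intronic by those transcripts.

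Summits of the 111 YTHDF2 peaks lay in the 3′ UTR for 36 (32.4%), in the coding sequence for 28 (25.2%), in the 5′ UTR for 5 (4.5%) and in an intron for 42 (37.8%). Over the 17621 placed peaks of the list, these shares were 39.2%, 35.7%, 2.0% and 23.1%. Places are by the transcripts that the list names. A summit that lay in several kinds of feature was given the first of 3′ UTR, coding sequence, 5′ UTR and intron. Map4k4 alone made most of the difference in introns. Without it, the other 87 peaks gave 39.1%, 31.0%, 4.6% and 25.3%. The 5 summits in a 5′ UTR were on Map4k4, Map3k10, Map2k1, Mapk6 and Mapk14. The peaks that cover the printed stretches had fold enrichments of 4.35 on Map3k10, 3.12 on Map2k1 and 3.02 on Map3k1, and the summit of the Map3k1 peak lay in the coding sequence.

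On Map4k4 (chr1:39900902-40026310, mm10), 13 of the 20 intronic peaks formed a group from 28.0 to 45.4 kb after the start of the gene, with fold enrichments of 2.33 to 5.56. Of its 4 m6A peaks, 0 lay there. The sources used here do not say whether the m6A list covers introns, so this does not show that m6A was absent there. Map2k7 and Map3k20 also had runs of 5 intronic peaks each, by the transcripts that the list names. The Map2k7 summits lay 208 to 3950 bp before the annotated 3′ end of the gene. Intronic summits of Mapk7 and Map3k15 lay 465 and 560 bp before the annotated 3′ ends of those genes. Whether these summits lie in exons of transcripts that the list does not name was not tested. Map3k15 overlaps the gene Pdha1, and Map3k12, which also had 1 YTHDF2 peak, overlaps Pcbp2 and Tarbp2. Whether the peaks listed for Map3k15 and Map3k12 belong to those other genes was not tested. For Map3k20 the YTHDF2 list uses an older symbol, so its 6 peaks were joined through a RefSeq synonym.

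Of the 28 m6A peaks of the cascade genes, 18 (64.3%; Wilson interval 45.8 to 79.3%) shared 1 bp or more with a YTHDF2 peak, against 4560 of 9314 placed m6A peaks (49.0%). That share of all peaks lies inside the interval. With YTHDF2 peaks of a fold enrichment of at least 3 only, it was 5 of 28 (17.9%) against 19.3%. In the other direction, 16 of the 111 YTHDF2 peaks (14.4%; 9.1 to 22.1%) overlapped an m6A peak, against 23.1% of all YTHDF2 peaks, which lies above the interval. Of the 111 peaks, 24 are those of Map4k4, so they are not independent and the interval may be too narrow. Intronic summits made up 37.8% of the 111 peaks, against 23.1% of the placed peaks of the list. Whether the m6A list covers introns is not given, and the part of intronic peaks in the share of 14.4% was not tested. On Map4k4, 2 m6A peaks met a YTHDF2 peak, and the share without this gene was not computed. Some m6A peaks span introns, since the list gives only a start and an end, so an overlap need not be in the same exon. Overlaps were found on 11 genes, namely Map4k4, Map3k1, Map3k3, Map3k11, Map3k20, Map2k3, Map2k4, Mapk6, Mapk7, Mapk9 and Mapk14.

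On 7 of the 11 genes, an overlapping YTHDF2 peak had its summit in the 3′ UTR. On Mapk14 (chr17:28691342-28748405, mm10), a YTHDF2 peak of the 3′ UTR (chr17:28747123-28747925, fold enrichment 2.21) met m6A peaks at chr17:28747256-28747555 and chr17:28747781-28747955. On Mapk7 (chr11:61488812-61494267, mm10), all 3 m6A peaks were centred in the coding sequence and met 2 YTHDF2 peaks there, with fold enrichments of 2.56 and 2.59. On Map3k1 (chr13:111746428-111818269, mm10), 1 m6A peak in the 3′ UTR met a YTHDF2 peak of 2.42 and 1 in the coding sequence met a peak of 2.69. On Map2k3 an m6A peak of 325 bp in the 3′ UTR (chr11:60952148-60952472, mm10) lay within a YTHDF2 peak of 3.01. On Map3k20 an m6A peak of 150 bp met a YTHDF2 peak of 3.85, the highest fold enrichment of the listed overlaps. Map3k11 and Mapk6 had overlaps near the start of the coding sequence. On Map3k11 an m6A peak of the 5′ UTR met a YTHDF2 peak of 2.6 with its summit in the coding sequence, and on Mapk6 an m6A peak of 650 bp met 2 YTHDF2 peaks, 1 of them (2.36) with its summit in the 5′ UTR.

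**Figure D4:**
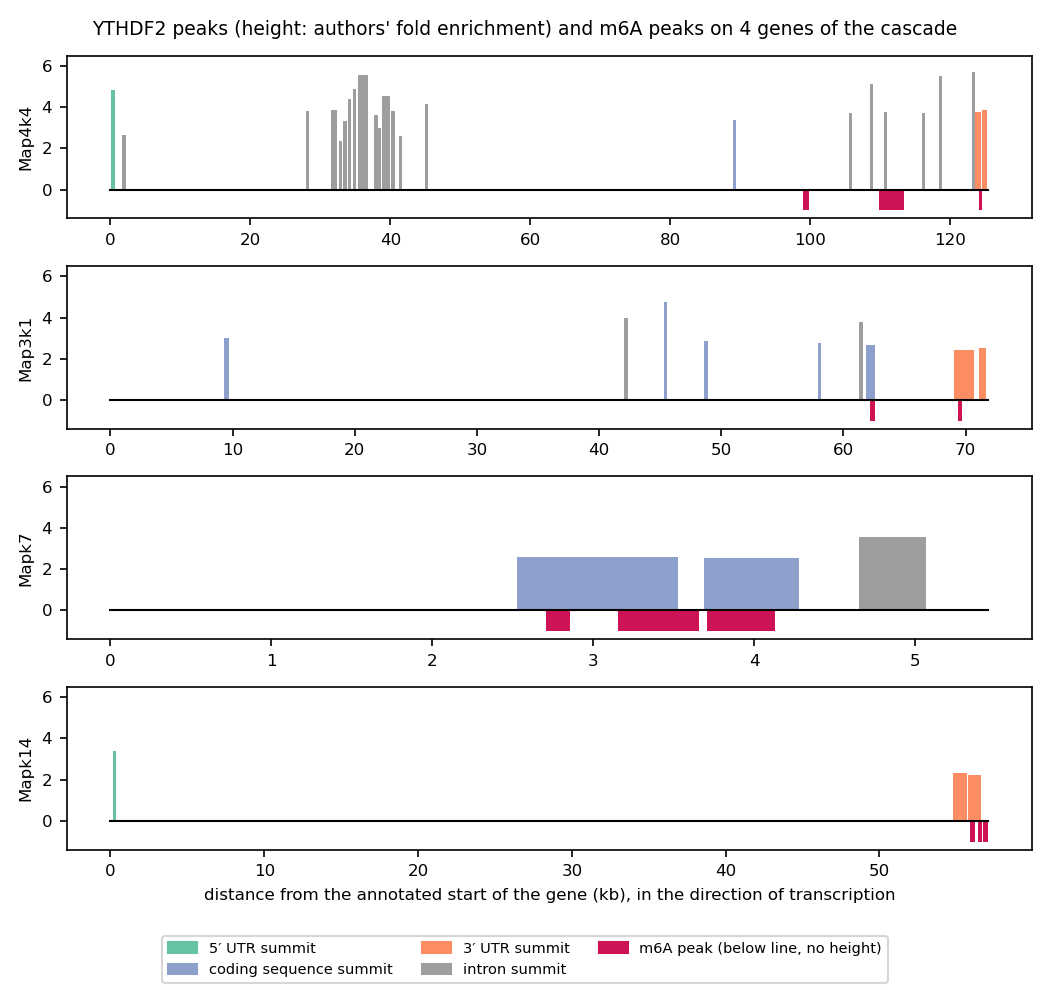
YTHDF2 peaks (bars above the line, height the authors' fold enrichment, coloured by where the summit lies) and m6A peaks (red, below the line, no height) along Map4k4, Map3k1, Mapk7 and Mapk14, by distance from the annotated start of the gene in kb. On Mapk14 the peaks meet in the 3′ UTR, on Mapk7 in the coding sequence, and on Map4k4 most YTHDF2 peaks lie in introns with no m6A peak.

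The signs of the input RNA comparison were also counted by peaks, as a description, since no cascade gene was called. Of the 16 genes with both an m6A and a YTHDF2 peak, 11 had a log2 fold change above 0, with a median of 0.04. Of the other 18 tested genes 2 were above 0 (Map4k3 and Mapk8), with a median of -0.10. Over all tested genes the same split was 59.1% above 0 (median 0.03) with both peaks and 42.8% (median -0.04) without. These counts depend on where 0 is set, and centring on the most abundant 25% of genes would lower every value by 0.04. Of the 11 cascade genes above 0 with both peaks, Map3k3, Mapk7, Map3k11 and Mapk9 lay at 0.02 to 0.04. Of the other genes, Map4k3 was at 0.22 and Mapk8 at 0.10. The counts were not redone with centring. Mapk14, with 3 peaks of each kind, was on the negative side. Without positive library 1, limma gave 8 of 16 above 0 with both peaks (median 0.00) and 6 of 18 without (median -0.03). Without any other library it gave 11 or 12 of 16 and 3 to 5 of 18. The median mean count was 2098 for the 16 genes and 350 for the other 18, and the part of mean count in these counts was not tested.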

How the data were processed

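The submitters' processing notes name the build mm10 and the tools ChIPseeker, HISAT2 and HOMER, without versions. The sources used here do not give the caller of the YTHDF2 peaks, whose names all begin m6a_peak. The expression table, as deposited, holds 0 columns of per-library values. Per the file headers, its mean count is a signal, the mean over the 4 input libraries of size-factor-normalized counts. The authors computed its log2 fold change with SE, its Wald score, its p-value and its adjusted p-value, under the column names of DESeq2. In the deposited YTHDF2 list, the fold ratio at the summit and the −log10 q are the authors'. The m6A list gives positions alone.

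Size factors were read from genes with a single read. Whole counts per library were then searched that give the deposited mean to its rounding and, refitted, the deposited log2 fold change. Exactly 1 solution was found for 10019 of 10054 tested genes with a mean count under 6000, and for all 41 cascade genes. limma 3.58.1 in R 4.3.3 tested log2(normalized count + 1) with a mean-variance trend and Benjamini-Hochberg adjustment. This was added after the files were seen, since the design had foreseen counts. Intervals on shares are Wilson intervals at 95% and cover counting error only. m6A peaks are listed without a chromosome and were placed by symbol, at most 1000 bp from that RefSeq gene. 20 cascade genes overlap another RefSeq gene, and the sources used here do not say whether counting used strand. Whether a peak listed for such a gene belongs to the other gene was not tested.

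The genes, the lists and the tests were chosen with earlier results of these data known. Genes given in full are those past p 0.05, those of the ERK, JNK and p38 modules, those with most peaks and those with overlapping peaks, and others are named where they hold an extreme value. Alternatives were the filter, centring, a 1.5-fold minimum, the upper 50% of genes by mean count, added kinases, limma, each library left out, and peak thresholds. The values of 1 cascade gene and 1 other pathway gene are not reported here, though both are in the counts.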

Additional observations from a re-analysis of the deposited data

How the results depend on the processing

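Of 30 alternatives to the counts and medians above, 28 kept the value within 1.5 times or within the spread. Some of these could hardly move: a 1.5-fold minimum added to 0 calls can only give 0. For tier medians the spread was the median SE of the tier (0.12 to 0.17), which is larger than any of those medians. The count of cascade genes called was 0 with no filter on mean count, with centring, with a 1.5-fold minimum, in the upper 50% of genes by mean count, with kinases of the same tiers under other names, and by limma. With 1 library left out it ran from 0 to 4, the 4 without positive library 2. All genes called, 250 in the authors' deposited table, came to 145 with the 1.5-fold minimum, 4 by limma, and by limma without 1 library 83, 11, 282 and 2024 in the library order of the report. The m6A peaks of cascade genes that overlap a YTHDF2 peak fell from 18 to 5 when YTHDF2 peaks needed a fold enrichment of at least 3, as fewer peaks are then left. Centring on the most abundant 25% of genes moves every log2 value by 0.04, and the medians of tiers are of that size. In the upper 50% of genes by mean count the Map4k median was 0.15 (2 genes) and the Map3k median 0.03 (7 genes), both above 0. No paired analysis was possible because the recovered libraries carry no replicate numbers. Another choice of size factors was not run. For 7 of the 41 genes the mean count was below 48, the lowest of a tested gene.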
